A study of Nicotiana attenuata with 6 samples.

Results

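Lignin-path phenylpropanoid genes were examined in the floral stalks (peduncles) of coyote tobacco, Nicotiana attenuata. The genes were taken as every array probe whose name carries the protein entry CAMT5_TOBAC, CAMT6_TOBAC or 4CL1_TOBAC. This gave 3 probes, 1 for each entry, among 59157 probes on the array. CAMT5_TOBAC and CAMT6_TOBAC are caffeoyl-CoA O-methyltransferases and 4CL1_TOBAC is a 4-coumarate:CoA ligase, all 3 named after the tobacco (Nicotiana tabacum) protein that the array's designers matched to the coyote tobacco transcript. The transcript identifiers are NA26598_21601 for CAMT5_TOBAC, NA14655_21602 for CAMT6_TOBAC and NA20548_21422 for 4CL1_TOBAC.

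The peduncles, which hold and move the flower, came from plants with an empty vector (EV) and from irZTL plants, in which RNA interference lowers ZTL (ZEITLUPE), a light-sensing F-box protein of the circadian clock. Both groups were sampled when lights came on (ZT0), on the day flowers began to move, in a glasshouse with days of 16 h light and 8 h dark. Each group has 3 one-colour Agilent arrays, each from a pool of peduncles. The differential analysis in the series' design text names 1 silenced line, and nothing in the labels ties the pools to different plants, so each p-value reflects variation among the pools alone, which may be partly technical. No probe is named for ZTL, and its level was not analysed here.

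Phenylpropanoid metabolism starts from phenylalanine and leads to lignin, flavonoids and other phenolics. 4-coumarate:CoA ligase joins hydroxycinnamic acids to coenzyme A, which makes the activated esters that the later steps use. Caffeoyl-CoA O-methyltransferase then places a methyl group, taken from S-adenosylmethionine, on caffeoyl-CoA to give feruloyl-CoA, a precursor of the guaiacyl and syringyl units of lignin. Lignin stiffens the walls of xylem vessels and fibres in stems and stalks.

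The arrays were alike in brightness, with 29222 to 30173 probes clear of background and an upper quartile (75th percentile) of processed signal of 239 to 327 units. Levels below are log2 processed signal minus that percentile, so that 0 is the array's 75th percentile. A probe was called measured if either group had it well above background in every replicate, which held for 28683 probes. irZTL replicates 1 and 2 were on slide 1, while irZTL replicate 3 and all EV arrays were on slide 2.

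The 3 genes were expressed in both genotypes and were among the brighter transcripts of the peduncle. Each of the 3 probes was well above background on all 6 arrays, and none was saturated. The median spot signal of CAMT5_TOBAC was 111 to 180 times its local background, that of CAMT6_TOBAC 105 to 196 times, and that of 4CL1_TOBAC 109 to 169 times. The scanner software put the error of each signal at 10% of its value.

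CAMT5_TOBAC ranked between 1983 and 3098 from the brightest of the 59157 probes, and 94.8% to 96.6% of probes were dimmer. CAMT6_TOBAC ranked between 1615 and 3042, with 94.9% to 97.3% of probes dimmer. 4CL1_TOBAC ranked between 1661 and 3082, with 94.8% to 97.2% dimmer. The best rank of both methyltransferases was on irZTL replicate 3, and that of the ligase was on EV replicate 3. Probe brightness depends on the probe as well as on the transcript, so these ranks describe spots and not numbers of molecules.

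Only 364 probes carry a readable protein name, and 200 of these were measured. By mean signal over the 6 arrays, 4CL1_TOBAC was 57th, CAMT6_TOBAC 59th and CAMT5_TOBAC 64th among the 200. They lay beside TBB1_ORYSJ, a beta-tubulin (mean 3.92, against 3.92 for 4CL1_TOBAC), IF4A3_NICPL, a translation initiation factor (3.84), RS3A_TOBAC, a cytosolic ribosomal protein (3.81, against 3.83 for CAMT6_TOBAC), and VPS41_SOLLC (3.74, against 3.71 for CAMT5_TOBAC). CB23_TOBAC, a chlorophyll a/b-binding protein, was next below CAMT5_TOBAC with a mean of 3.69, but this mean spans 2.46 in irZTL and 4.92 in EV, so it lay near CAMT5_TOBAC (3.82 and 3.61) in neither genotype.

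**Figure D1:**
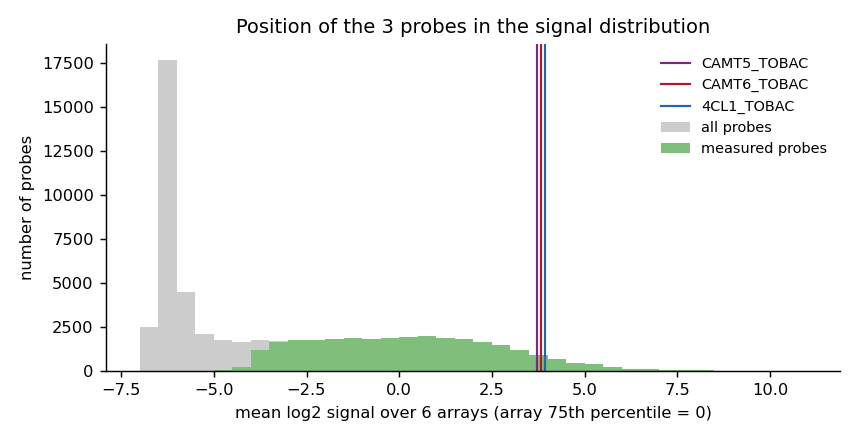
Number of probes (vertical axis) by mean log2 signal over the 6 arrays (horizontal axis, 0 is the array's 75th percentile), for all probes in grey and for the 28683 measured probes in green. The vertical lines mark CAMT5_TOBAC at 3.71, CAMT6_TOBAC at 3.83 and 4CL1_TOBAC at 3.92, close to each other in the upper part of the distribution.

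The comparison of irZTL with EV asked which transcripts of the peduncle differ when ZTL is silenced. The mean signal of the methyltransferase probes was 1.16 and 1.24 times that of EV in irZTL and the mean of the ligase probe was 1.14-fold lower, and none of these differences passed the test. The threshold was an adjusted p under 0.05 and over 2-fold change in limma, adjusted by Benjamini-Hochberg across measured probes. It was passed by 0 of the 3 probes and by 1.75% of all measured probes. With no fold minimum the counts were 0 of 3 and 4.04%. At an unadjusted p under 0.05 the counts were 0 of 3 and 20.1% of all measured probes.

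CAMT6_TOBAC had levels of 3.81, 3.81 and 4.34 in irZTL replicates 1 to 3 and of 3.48, 3.76 and 3.80 in EV replicates 1 to 3. irZTL replicate 3 was the highest array and EV replicate 1 the lowest, while the other 4 arrays lay close together. The irZTL arrays all lay above the EV arrays, but irZTL replicate 2 exceeded EV replicate 3 by only 0.000628 log2. Among all measured probes, 12% had every irZTL array above every EV array, and 25.2% had groups that did not overlap in either direction. The mean was 3.99 ± 0.31 in irZTL and 3.68 ± 0.18 in EV (SD, n = 3 each). The difference was 0.31 ± 0.18 log2 (limma standard error), or 1.24-fold, with an adjusted p of 0.403 and a 95% interval of 0.921-fold to 1.66-fold. The exact permutation test (two-sided) gave p = 0.1, the smallest that 3 against 3 allows.

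CAMT5_TOBAC also had its highest level on irZTL replicate 3 and its lowest on EV replicate 1. Its levels were 3.76, 3.63 and 4.08 in irZTL replicates 1 to 3 and 3.45, 3.65 and 3.72 in EV replicates 1 to 3. The groups overlapped, since irZTL replicate 2 was below EV replicates 2 and 3. The mean was 3.82 ± 0.23 in irZTL and 3.61 ± 0.14 in EV (SD, n = 3 each). The difference was 0.21 ± 0.14 log2 in limma, or 1.16-fold, with an adjusted p of 0.478 and a 95% interval of 0.911-fold to 1.47-fold (exact permutation p = 0.3).

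4CL1_TOBAC had levels of 3.84, 3.45 and 4.19 in irZTL replicates 1 to 3 and of 3.74, 3.95 and 4.35 in EV replicates 1 to 3. The groups overlapped over most of their range, with irZTL replicate 2 the lowest array and EV replicate 3 the highest. The mean was 3.83 ± 0.37 in irZTL and 4.01 ± 0.31 in EV (SD, n = 3 each). The difference was -0.19 ± 0.23 log2 in limma, with an adjusted p of 0.708 and a 95% interval of 0.601-fold to 1.29-fold (exact permutation p = 0.5). The direction turned to 0.17 on slide 2 alone and the difference was 0.00 without irZTL replicate 2.

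**Figure D2:**
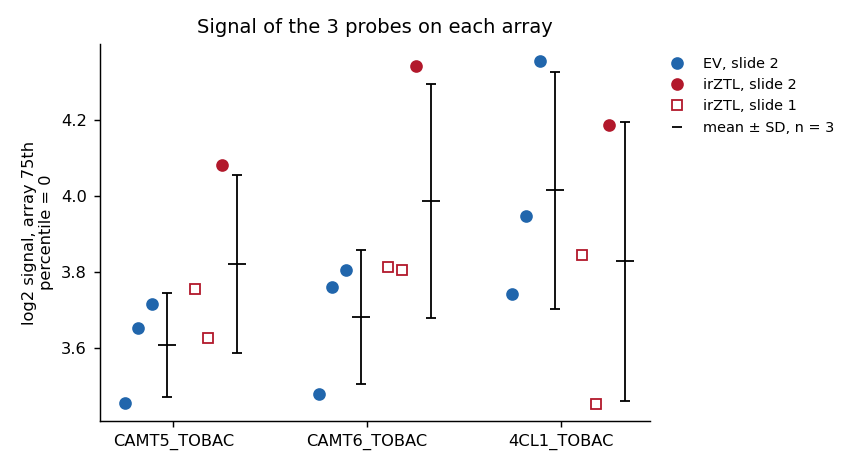
Log2 signal of each probe on each array (vertical axis, 0 is the array's 75th percentile), with EV in blue, irZTL in red, slide 1 as open squares and slide 2 as filled circles. Black marks give the mean and SD of 3 arrays, and irZTL replicate 3 (the filled red circle) is the highest irZTL array for all 3 probes.

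The 95% intervals of all 3 genes lay inside a 2-fold change in either direction. For comparison, the median difference over all measured probes was -0.01 log2 and over the 200 named ones -0.02, against a median of 0.21 over the 3 genes. The scaling of each array holds the median over all measured probes near 0. The absolute difference of CAMT6_TOBAC was larger than that of 73.6% of measured probes, that of CAMT5_TOBAC than 61.2% and that of 4CL1_TOBAC than 56.2%.

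The ligase probe varied more between replicates than most probes. Its SD of 0.37 in irZTL was above that of 88.7% of measured probes, and its SD of 0.31 in EV above that of 83%. The median SD of measured probes was 0.14 in irZTL and 0.16 in EV. CAMT6_TOBAC was above 83.8% of probes in irZTL but above only 55.9% in EV, and CAMT5_TOBAC above 73.3% and 42.1%.

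irZTL replicate 3 carried much of the difference in the methyltransferases. When limma weighted arrays by quality, it had the lowest weight of the 6 arrays (0.50). Under these weights the differences were 0.17 log2 for CAMT6_TOBAC, 0.11 for CAMT5_TOBAC and -0.35 for 4CL1_TOBAC. irZTL replicate 3 exceeded the mean of irZTL replicates 1 and 2 by 0.53 log2 for CAMT6_TOBAC, 0.39 for CAMT5_TOBAC and 0.54 for 4CL1_TOBAC. The median of that quantity over all measured probes was -0.01, which the scaling of each array holds near 0. It does not show how many probes deviated as far. Without irZTL replicate 3 the difference between the groups was 0.13 for CAMT6_TOBAC and 0.08 for CAMT5_TOBAC. That comparison sets irZTL arrays on slide 1 against EV arrays on slide 2, so genotype and slide cannot be told apart in it. The excess of irZTL replicate 3 over the other irZTL arrays is likewise also a difference between slides. It is the only irZTL array on the slide that held the EV arrays. On slide 2 alone, where it is the single irZTL array, the differences were 0.66 ± 0.20 log2 for CAMT6_TOBAC and 0.47 ± 0.18 for CAMT5_TOBAC (limma adjusted p of 0.323 and 0.444). The spread in that fit comes from the 3 EV arrays only, and the lone irZTL array is assumed to vary like them. On this slide irZTL replicate 3 lay above every EV array for both methyltransferases, as it did for 25.8% of measured probes, and within the EV range for the ligase. Slide 1 held no EV array, so it gives no value of its own.

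Replicate numbers are shared between the groups. Across the measured probes, deviations from the group means correlated between arrays of the same number, but only weakly for replicate 2. The r was 0.386, 0.142 and 0.372 for replicates 1, 2 and 3, and -0.331 to 0.057 between arrays of different numbers. Deviations within a group sum to 0, so these r are not independent, and the pairing was taken from these data alone. The tests above do not use it. CAMT6_TOBAC was higher in irZTL in all 3 pairs, by 0.33, 0.05 and 0.54 log2 for replicates 1, 2 and 3, as were 25.2% of measured probes. CAMT5_TOBAC differed by 0.30, -0.03 and 0.36 and 4CL1_TOBAC by 0.10, -0.49 and -0.17. The second pair gave the lowest value for each of the 3 genes.

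**Figure D3:**
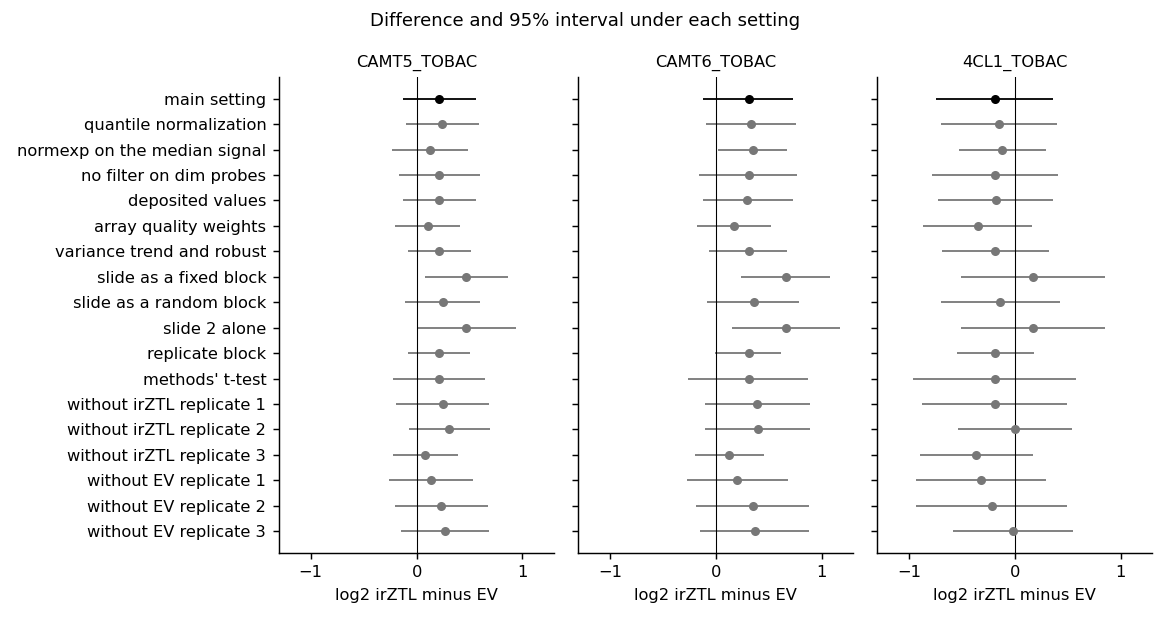
Difference in log2 signal, irZTL minus EV (horizontal axes), with its 95% interval for each gene under the setting used here (black) and 17 alternatives (grey, 1 per line). The points of CAMT5_TOBAC (0.08 to 0.47) and CAMT6_TOBAC (0.13 to 0.66) lie above 0 in each alternative, and those of 4CL1_TOBAC run from -0.37 to 0.17.

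The ratio between probes of the same array does not depend on how arrays are scaled, and was examined after the values had been seen. The log2 ratio of CAMT6_TOBAC to 4CL1_TOBAC was -0.03, 0.35 and 0.16 in irZTL replicates 1 to 3 and -0.26, -0.19 and -0.55 in EV replicates 1 to 3. The irZTL arrays lay above the EV arrays by 0.16 log2 at the closest point. The means were 0.16 ± 0.19 and -0.33 ± 0.19 (SD, n = 3 each), a difference of 0.49. That of CAMT5_TOBAC to 4CL1_TOBAC was -0.09, 0.17 and -0.11 in irZTL and -0.29, -0.30 and -0.64 in EV, in the same order. The difference was 0.40, and these groups did not overlap either. The exact permutation test gave p = 0.1 for each of these ratios, the smallest that 3 against 3 allows. Relative to 4CL1_TOBAC, 5.45% of the other measured probes had every irZTL array above every EV array.

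With 1 array left out the ratio differences ran from 0.38 to 0.59 for CAMT6_TOBAC and from 0.28 to 0.46 for CAMT5_TOBAC. On slide 2 alone they were 0.49 and 0.30. Since the groups did not overlap, the sign could not change in any of these subsets, so only the sizes are read. Computed from the median spot signal minus the local background, the difference was 0.47 for CAMT6_TOBAC, still with no overlap. For CAMT5_TOBAC it was 0.25 and the groups overlapped. The ratio of CAMT6_TOBAC to CAMT5_TOBAC was 0.06, 0.18 and 0.26 in irZTL and 0.02, 0.11 and 0.09 in EV, and these groups overlapped. The zero of a ratio between different probes has no meaning of its own, so only its difference between arrays is read.

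**Figure D4:**
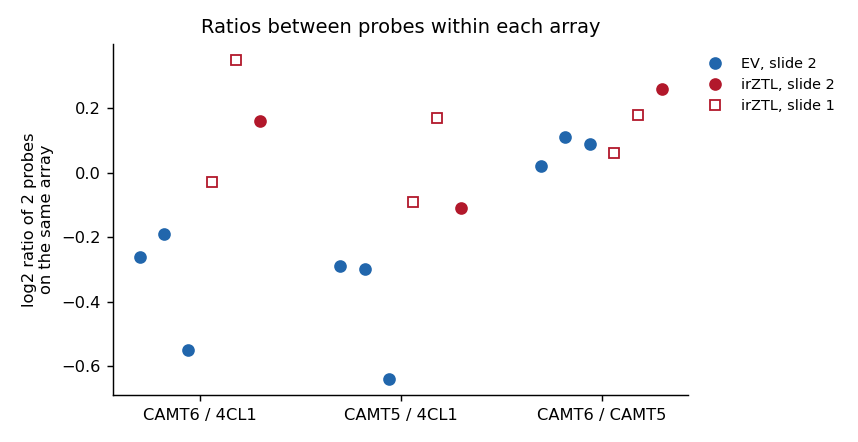
Log2 ratio of 2 probes on the same array (vertical axis), with EV in blue, irZTL in red, slide 1 as open squares and slide 2 as filled circles. In both ratios to 4CL1 the 3 irZTL arrays lie above the 3 EV arrays, and in CAMT6 over CAMT5 the groups overlap.

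The methyltransferase probes had similar profiles across the 6 arrays. Pearson's r between CAMT5_TOBAC and CAMT6_TOBAC was 0.98 (exact permutation p = 0.0222, and 0.0667 adjusted over the 3 pairs of genes) and Spearman's rho 0.83 (exact p = 0.0583). The high r depends on irZTL replicate 3 and EV replicate 1, the 2 arrays farthest from the median of CAMT5_TOBAC. Without them it was 0.50, but leaving out extreme arrays narrows the range, which by itself can lower r. With group means removed r was 0.97. Slide 1 held 2 arrays and slide 2 held 4, and no r within a slide is given. With 4CL1_TOBAC, r was 0.54 for CAMT5_TOBAC and 0.44 for CAMT6_TOBAC (exact permutation p of 0.258 and 0.378). Without irZTL replicate 3 and EV replicate 1 these were 0.54 and -0.11. Those arrays were chosen by the methyltransferase levels, and the lowest and highest arrays of 4CL1_TOBAC stayed in. With group means removed over all 6 arrays the r with 4CL1_TOBAC was 0.92 and 0.83, for which no p is given. Both methyltransferases belong to the same protein family and the probe sequences were not used here. Whether either probe also binds the other's transcript was not tested.

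Likeness to other named transcripts was ranked by Pearson's r over the same 6 arrays, which share their slides and groups, and is given as a description. CAMT6_TOBAC was most like CAMT5_TOBAC (0.98), SNAK1_SOLTU, the antimicrobial peptide snakin of potato (0.98), and CATA3_NICPL, a catalase (0.93). CAMT5_TOBAC was most like CAMT6_TOBAC, SNAK1_SOLTU (0.94) and DIOX2_PAPSO, a dioxygenase entry of opium poppy (0.92). 4CL1_TOBAC shared none of these, and was most like RR14_AETCO, a ribosomal protein of the plastid (0.97), DOF53_ARATH, a Dof-type transcription factor of Arabidopsis (0.96), and CEMA_VICFA, a plastid envelope protein (0.95). Among all 28679 other measured probes with a value on every array, named or not, 0.0732% had a higher r with CAMT6_TOBAC than CAMT5_TOBAC had.

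Few other genes of the pathway can be followed by name. A list of 15 name codes for the steps from phenylalanine to the monolignols found the 3 genes above and no other, and 0 of the 3 passed in either direction. Upstream, AROF_TOBAC, the enzyme that opens the shikimate pathway towards phenylalanine, had levels of 2.59, 2.51 and 2.47 in irZTL replicates 1 to 3 and of 2.20, 2.25 and 2.38 in EV replicates 1 to 3. The groups did not overlap, as for 25.2% of measured probes in either direction and 12% with irZTL higher. The difference was 0.25 ± 0.09 log2, with an unadjusted limma p of 0.0334. An unadjusted p under 0.05 was found for 20.1% of measured probes. The adjusted p of AROF_TOBAC was 0.205, and so it did not pass.

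SAHH_NICSY, the adenosylhomocysteinase that clears the product left after methyl transfer from S-adenosylmethionine, had levels of 6.17, 6.29 and 6.52 in irZTL and 5.92, 6.41 and 6.37 in EV. These groups overlapped, and the difference was 0.10 ± 0.17 log2 (limma adjusted p = 0.798). Of the 7 probes named for peroxidases, the enzyme class that couples monolignols in the wall, 6 were well above background on no array. These include all 4 probes for PERX_TOBAC and PERX_NICSY, the lignin-forming anionic peroxidases of tobacco species, with levels from -6.71 to -6.08. The other, PER40_ARATH, was well above background on irZTL replicate 3 only, at -3.94, with -5.39 and -4.55 on the other irZTL arrays and -6.16, -6.50 and -6.21 on the EV arrays. It did not meet the filter, so no fold is given. CHSC_IPOPU, a chalcone synthase entry of morning glory at the entry to flavonoids, was well above background on no array.

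**Figure D5:**
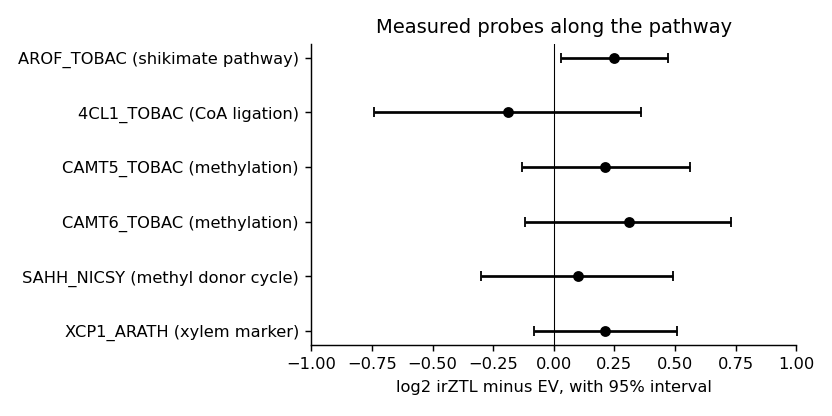
Difference in log2 signal, irZTL minus EV, with its 95% limma interval (horizontal axis), for the measured probes named for the shikimate pathway, the lignin path, the methyl donor cycle and xylem. The intervals of all but AROF_TOBAC include 0, and none passed after adjustment. Of all measured probes, 20.1% had an unadjusted limma p under 0.05.

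Each sample is a mixture of the tissues of the stalk, and fewer cells of a type cannot be told apart from less RNA per cell. XCP1_ARATH, a cysteine protease known from xylem vessels in Arabidopsis and the only xylem marker on the list with a probe, had levels of 2.96, 2.59 and 2.88 in irZTL and 2.62, 2.66 and 2.50 in EV. Its difference was 0.21 ± 0.12 log2 (limma adjusted p = 0.394), with overlapping groups. This was in the direction of the methyltransferases and opposite to that of 4CL1_TOBAC (-0.19). Green tissue markers were measured for 8 of 8 probes, and 2 of them, CB23_TOBAC (-2.46 ± 0.22) and RCA_SOLPN (-1.34 ± 0.12), were lower in irZTL (limma adjusted p of 0.00495 and 0.00540). CB23_SOLLC, another chlorophyll a/b-binding entry, differed by -1.70 ± 0.37 (adjusted p = 0.061) with groups that did not overlap. The summed green signal was 10.16 to 10.36 log2 in irZTL and 10.20 to 10.49 in EV, nearly all of it from RBS2_NICSY, the Rubisco small subunit (means of 10.15 and 10.20). RBS2_NICSY differed by -0.05 ± 0.13 and PSAEA_NICSY by -0.02 ± 0.09. PSBK_SILLA differed by 0.21 ± 0.22, PSAEB_NICSY by 0.07 ± 0.09 and PSBC_TRACE by 0.02 ± 0.13. The groups of these green probes overlapped, and the median difference over all 8 was -0.04 log2. Pollen and anther markers were measured for 2 of 2 probes, and 0 passed the 2-fold threshold. POLC2_TOBAC, a pollen protein that binds calcium, was at -1.65, -1.80 and -1.58 in irZTL and -1.15, -0.89 and -1.19 in EV, without overlap (-0.60 ± 0.12 log2, limma adjusted p = 0.046). LAT52_SOLLC, the other pollen entry, had an SD of 2.34 in irZTL, and the summed level of both was -1.68 to -0.12 in irZTL and -0.92 to -0.03 in EV. The 1 epidermis probe was well above background on no array, and no phloem marker was found. The part of tissue composition in the differences of the lignin-path genes was not tested.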

How the data were processed

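Per the labels' protocols, Cy3-labelled RNA of 6 peduncle pools was hybridized to 1-colour arrays and spots were extracted with Agilent Feature Extraction (version 10.7.3.1 per the file headers, 9.5 per the submitters' processing notes). The deposited scanner files hold a processed intensity per spot, background-subtracted and detrended within the array, with median spot and background intensities and flags. The authors' deposited table holds, per the design text of the series, log2 values scaled to the array's 75th percentile. Matched by feature number, 99.9% or more of its values lay within 0.05 of those computed here, with column medians of -4.12 to -3.98, and no centring was seen.

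Control spots and outliers were left out and spots of a probe averaged (500 probes had 6). Processed intensities were put on the log2 scale, the array's 75th percentile was subtracted, and the values were fitted with limma 3.58.1 in R 4.3.3 (lmFit, eBayes, two-sided) over 28683 probes, after the authors' filter on the background flag. The threshold was over 2-fold with adjusted p below 0.05. The fit was tested on simulated data with independent arrays, no slide or replicate structure, and effects larger than the differences of the 3 genes. That test therefore does not bear on differences as small as theirs. The members and lists were chosen with earlier results of these data known. Named were the members, probes with the listed pathway or marker codes, the 3 named probes most like each member, and its neighbours in mean signal. PSA6_TOBAC, PP2A_TOBAC and PP2A5_TOBAC, which match marker codes by letters only, were left out. The reference gene table matched 0 probe identifiers. Same-numbered arrays of the 2 groups had correlated deviations from their group means (r of 0.386, 0.142 and 0.372 for replicates 1, 2 and 3), so the numbers were taken to pair the samples on these data alone. The main fit and the permutation tests do not use this pairing, which enters only in the replicate block alternative. Alternatives changed scaling, background correction, filter, weights, variance model, slide, pairing, test and arrays.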

Additional observations from a re-analysis of the deposited data

How the results depend on the processing

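None of the 3 genes passed under any of 17 alternatives. Over these, CAMT6_TOBAC differed by 0.13 to 0.66 log2 (adjusted p of 0.177 to 0.737), CAMT5_TOBAC by 0.08 to 0.47 (0.276 to 0.819) and 4CL1_TOBAC by -0.37 to 0.17 (0.342 to 0.999). The sign of 4CL1_TOBAC turned to 0.17 with slide as a fixed block and on slide 2 alone, which rest on 1 irZTL array, and it was 0.00 without irZTL replicate 2. With 1 array left out the ranges were -0.37 to 0.00 for 4CL1_TOBAC, 0.13 to 0.40 for CAMT6_TOBAC and 0.08 to 0.31 for CAMT5_TOBAC. The lowest value of each gene was without irZTL replicate 3, where genotype and slide cannot be told apart. With the replicate block the differences were 0.31 (adjusted p = 0.197) for CAMT6_TOBAC, 0.21 (0.291) for CAMT5_TOBAC and -0.19 (0.443) for 4CL1_TOBAC, with 689 probes passing against 503, and the block changed no call of the 3 genes. The interval of CAMT6_TOBAC lay above 0 after normexp of the median signal (0.02 to 0.67 log2), with a limma adjusted p of 0.254. With slide as a fixed block and on slide 2 alone the intervals of both methyltransferases lay above 0, and that of CAMT6_TOBAC reached beyond 2-fold. These 2 slide settings rest on 1 irZTL array.

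The count of all probes passing, 503, moved to 207 when slide was a fixed block, 62 on slide 2 alone, 267 after normexp of the median signal, 756 under array weights, 260 when dim probes were kept, 77 by the methods' t-test, 1159 without a fold minimum, and 242 to 718 when 1 array was left out. For each of these the cause was not tested. Among measured probes alone, 90.8% were dimmer than CAMT5_TOBAC, 91.5% than CAMT6_TOBAC and 92% than 4CL1_TOBAC, against 95.6%, 95.9% and 96.1% of all probes, since dim probes are left out. The number of arrays limits the precision.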
